A study of Mus musculus and Homo sapiens with 20 samples.

Results

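The transcripts of the heat shock factors HSF1, HSF2 and HSF4 and of the heat shock factor binding protein HSBP1 were followed in 3 cell lines treated with an inhibitor of the HSP90 chaperones. Genes were taken by their symbol, ignoring case, which gave 4 genes in each line. These were 5 of the 63568 identifiers counted in K562, because HSF1 is listed there under a second identifier (ENSG00000261132.1) with 0 counts in every library, and 4 of 43626 in each mouse line. K562 is a human line from a chronic myeloid leukaemia. The mouse lines were embryonic fibroblasts (MEF) and the haematopoietic precursor line HPC-7. Each line had 3 RNA-seq libraries of cells given NVP-AUY922 (HSP90i), a drug that occupies the ATP pocket of HSP90, for 16 h, and 3 libraries of cells given the solvent DMSO (Control). K562 received 300 nM, MEF 200 nM and HPC-7 50 nM of the drug, which ties dose to line and species. Of the 20 samples of the series, the 2 of an HSP90 chromatin immunoprecipitation were not used here.

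Heat shock factors are transcription factors that bind as trimers to heat shock elements, inverted repeats of the letters GAA and TTC, and switch on chaperone genes. HSF1 is the main factor of the acute response and is held inactive by chaperones, HSP90 among them, in unstressed cells. HSF2 is known from development and can form mixed trimers with HSF1, HSF4 is best known for its role in the lens, and HSBP1 is a small coiled-coil protein that binds the trimerisation region of HSF1 and dampens its activity.

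The 250 bases before 3 mouse start sites are shown, because heat shock elements lie in this part of many chaperone genes. The windows come from RefSeq (GRCm38.p6) and are given from 5′ to 3′ on the strand of the gene, with capitals marking a pair of facing heat shock units (GAANNTTC or TTCNNGAA, each of which reads the same on both strands). The Hsf2 window (chr10:57486135-57486384, plus strand) holds no such pair, the Hspa1b window (chr17:34959239-34959488, minus strand) holds one ending 96 bases before the start, and the Hsph1 window (chr5:149636316-149636565, minus strand) holds one ending 46 bases before it.
Hsf2: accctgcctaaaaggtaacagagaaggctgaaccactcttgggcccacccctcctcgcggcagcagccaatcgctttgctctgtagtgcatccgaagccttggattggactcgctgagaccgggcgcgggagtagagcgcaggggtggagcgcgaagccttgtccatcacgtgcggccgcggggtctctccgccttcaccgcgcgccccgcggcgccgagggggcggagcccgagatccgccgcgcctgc
Hspa1b: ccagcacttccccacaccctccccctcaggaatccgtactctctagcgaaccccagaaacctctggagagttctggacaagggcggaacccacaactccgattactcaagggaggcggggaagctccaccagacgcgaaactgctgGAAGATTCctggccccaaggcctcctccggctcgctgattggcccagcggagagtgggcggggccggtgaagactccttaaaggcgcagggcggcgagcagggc
Hsph1: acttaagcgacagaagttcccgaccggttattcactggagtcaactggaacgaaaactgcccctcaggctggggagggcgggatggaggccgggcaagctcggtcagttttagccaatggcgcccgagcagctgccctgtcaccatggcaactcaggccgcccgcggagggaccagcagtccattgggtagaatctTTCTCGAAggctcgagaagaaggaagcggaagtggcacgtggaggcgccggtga
Hspa1b encodes an inducible HSP70 and Hsph1 an HSP110. The annotated span of Hsf2 runs from 57483766 to 57513143, so its window, set before a start site inside that span, is not upstream of every Hsf2 transcript.

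Hsf2 and Hsbp1 were the members with a window, and 0 of these 2 held a facing pair. Of 22 heat shock target genes with a window, 10 (45.5%) held a pair in at least 1 of their windows and 3 (13.6%) held 3 alternating units in a row (GAANNTTCNNGAA or TTCNNGAANNTTC, a match that contains 2 overlapping pairs). The windows of Hspd1 and Hspe1, which start in opposite directions, overlap and hold the same units, so that stretch enters both counts under 2 gene names. Among all 32851 mouse windows of 250 bases, 12.8% held a pair and 0.466% held 3 units. These are shares of single windows, whereas a target gene could match in any of its windows, so the shares are not of the same unit. The Hsf2 window had 68.4% G and C and the Hsbp1 window 58.8%, against a median of 52.4% over all windows. A missing match says only that these letters are not in this window.

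K562 libraries held 7936066 to 10950573 counts, MEF libraries 10542305 to 22872539 and HPC-7 libraries 10131491 to 16859394. Levels are CPM, counts scaled to a common total within a line. They were not divided by gene length and are compared for 1 gene at a time. Positive log2 fold changes mean higher in HSP90i, their errors are standard errors, 95% intervals are in brackets, and n = 3 per group throughout. Genes passed the test, or were called, at an adjusted p below 0.05. Whether replicates came from separate cultures is not in the labels, and p-values therefore cover the spread between these samples alone, which may be technical. In bulk libraries fewer cells of a type and less RNA per cell cannot be told apart. All 7 erythroid markers in the table were above 1 CPM in K562, all 7 fibroblast markers in MEF and all 7 haematopoietic progenitor markers in HPC-7. The summed fibroblast markers lay between 18700 and 19200 CPM in MEF HSP90i libraries and between 13000 and 13300 CPM in MEF Control libraries. Pdgfrb and Thy1 went the other way, averaging 159 and 3.84 CPM in MEF HSP90i and 250 and 5.8 CPM in MEF Control. The summed progenitor markers lay between 4700 and 5140 CPM in HPC-7 HSP90i libraries and between 2870 and 2920 CPM in HPC-7 Control libraries. Among these HPC-7 markers Kit averaged 2520 CPM in HSP90i and 987 CPM in Control, while Cd34 went the other way, with 56.7 CPM in HSP90i and 342 CPM in Control. Gata2 and Lmo2 were not higher either, with 328 and 178 CPM in HSP90i and 359 and 184 CPM in Control. Summed erythroid markers lay between 784 and 930 CPM in HPC-7 HSP90i libraries and between 380 and 391 CPM in HPC-7 Control libraries. In K562 the summed progenitor markers lay between 576 and 627 CPM in HSP90i libraries and between 771 and 1080 CPM in Control libraries, with CD34 at 0. PTPRC went the other way there, averaging 155 CPM in HSP90i and 109 CPM in Control. The part of these shifts in the results was not tested. In K562, Control replicate 1 stood apart, with a median distance from the other libraries of its group of 0.417 on the log2 scale, against 0.103 to 0.281 for the other 5 K562 libraries.

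**Figure D1:**
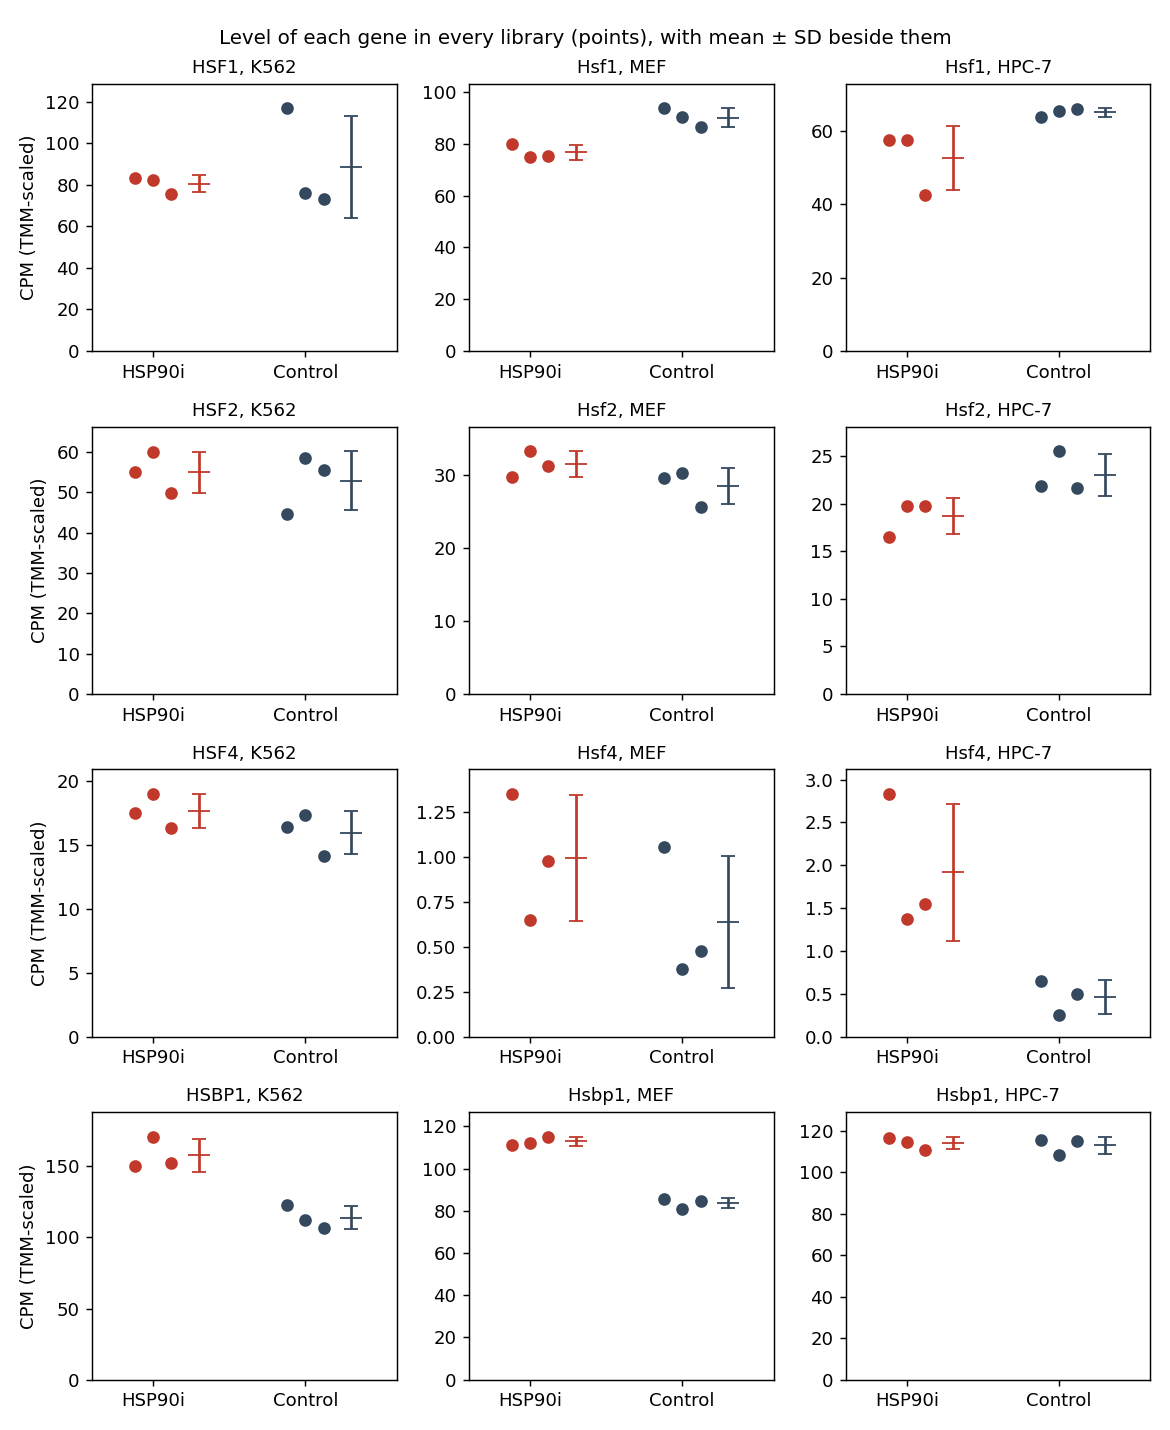
Level of each gene (CPM scaled within a line, vertical axis from 0) in every library of K562, MEF and HPC-7, with HSP90i (red) left of Control (blue). Points are libraries and the bar beside them is the mean ± SD of 3. HSBP1 stands clear of its Control libraries in K562 and MEF but not in HPC-7, and Hsf4 in HPC-7 is 1.37 CPM or more in HSP90i libraries and 0.647 CPM or less in Control libraries.

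The mRNA of HSF1 was lower in treated cells of both mouse lines by a small amount, and in K562 it did not pass the test. In K562 (ENSG00000185122.6) HSF1 had 83.2, 82.4 and 75.7 CPM in HSP90i libraries and 117, 76.1 and 73.0 CPM in Control libraries. Control replicate 1 alone lay above all treated libraries, and the other Control libraries overlapped them. With all libraries the log2 fold change was −0.14 ± 0.19 [−0.58, 0.29], and it was 0.11 without Control replicate 1 (adjusted p = 0.383, edgeR's quasi-likelihood test), so its sign rested on that library.

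In MEF, Hsf1 (ENSMUSG00000022556, chromosome 15, 76477362 to 76501155, GRCm38.p6) had 79.9, 75 and 75.3 CPM in HSP90i libraries and 93.8, 90.3 and 86.4 CPM in Control libraries. Every treated library lay below every Control library. The log2 fold change of −0.23 ± 0.05, or 1.18-fold lower, was called in 12 of 14 alternative settings, the exceptions being upper quartile factors (−0.13) and the joint fit of the mouse lines (−0.12).

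Hsf1 was also lower in HPC-7, with 57.6, 57.5 and 42.6 CPM in HSP90i libraries and 63.7, 65.4 and 66.0 CPM in Control libraries. HSP90i replicate 3 was the lowest, and the groups did not overlap. Hsf1 changed by −0.31 ± 0.11 [−0.56, −0.05] (adjusted p = 0.0313, edgeR's quasi-likelihood test, Benjamini-Hochberg), a fold of 1.24. Without HSP90i replicate 3 it was −0.18 (adjusted p = 0.0617 by the same edgeR test), and the call was also lost without any single Control library. Among tested genes of HPC-7 the fold change of Hsf1 stood at percentile 35.1, inside the middle of the range.

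HSF2 was lower in treated HPC-7 cells and was not called in K562 or MEF. In K562 (ENSG00000025156.8) it had 55.1, 60.0 and 49.8 CPM in HSP90i libraries and 44.6, 58.7 and 55.6 CPM in Control libraries. The groups overlapped, and the log2 fold change was 0.05 ± 0.15 [−0.29, 0.40] (adjusted p = 0.853, edgeR's quasi-likelihood test). Its sign turned under some settings, to −0.05 without Control replicate 1, −0.01 without HSP90i replicate 2, −0.06 with library size alone and −0.02 with upper quartile factors.

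Hsf2 (ENSMUSG00000019878, chromosome 10) had 29.7, 33.3 and 31.2 CPM in MEF HSP90i libraries and 29.5, 30.2 and 25.6 CPM in MEF Control libraries. HSP90i replicate 1 lay between the Control values, so the groups overlapped. Its log2 fold change of 0.14 ± 0.08 [−0.05, 0.32] did not pass edgeR's quasi-likelihood test (adjusted p = 0.165). It passed with upper quartile factors (0.24, adjusted p = 0.0198) and in the fit over all 12 mouse libraries (0.25, adjusted p = 0.0292), both by edgeR.

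In HPC-7, Hsf2 had 16.5, 19.8 and 19.8 CPM in HSP90i libraries and 21.9, 25.6 and 21.6 CPM in Control libraries. All treated libraries lay below all Control libraries. This gave a log2 fold change of −0.30 ± 0.11 [−0.56, −0.05], with adjusted p = 0.0347 in edgeR's quasi-likelihood test. DESeq2 gave the same value of −0.30 without a call (adjusted p = 0.0650). The call was also lost without HSP90i replicate 1 (−0.22), Control replicate 1 (−0.35) or Control replicate 2 (−0.23).

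HSF4 gave the largest fold change among the 4 genes, in HPC-7, on low counts. In K562 (ENSG00000102878.11) it had 17.5, 19.0 and 16.4 CPM in HSP90i libraries and 16.4, 17.3 and 14.1 CPM in Control libraries. The groups overlapped, and the log2 fold change of 0.14 ± 0.15 [−0.20, 0.48] was not called (adjusted p = 0.598, edgeR's quasi-likelihood test).

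Mouse Hsf4 (ENSMUSG00000033249, chromosome 8, 105269414 to 105275845, GRCm38.p6) was counted by few reads. In HPC-7 it had 39, 14 and 17 counts in HSP90i libraries, or 2.84, 1.37 and 1.55 CPM, and 11, 3 and 6 counts in Control libraries, or 0.647, 0.257 and 0.501 CPM. Every treated library was above every Control library. Hsf4 rose by 2.0 ± 0.42 [1.09, 2.95] on the log2 scale, 3.99-fold (adjusted p = 0.00141, edgeR's quasi-likelihood test, Benjamini-Hochberg), at percentile 96.5 of all tested genes. Hsf4 passed the filter on low counts in HPC-7 only through the treated group, where 3 libraries reached the 0.843 CPM needed, against 0 Control libraries. A fit with no such filter gave 1.96, and the 14 alternatives gave values between 1.55 and 2.34, all called. Most of them kept a filter on low counts that Hsf4 passed through its treated libraries, so their calls add no support.

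In MEF, Hsf4 had 28, 7 and 11 counts in HSP90i libraries, or 1.35, 0.650 and 0.979 CPM, and 24, 4 and 5 counts in Control libraries, or 1.06, 0.379 and 0.476 CPM. Control replicate 1 lay above treated replicates 2 and 3, so the groups overlapped. The log2 fold change of 0.52 ± 0.43 [−0.45, 1.5] was not called (adjusted p = 0.290, edgeR's quasi-likelihood test), and without Control replicate 1 it was 1.31 (adjusted p = 0.0389, edgeR). Replicate 1 had the highest Hsf4 CPM in each of the 4 mouse groups and was also the most deeply sequenced library of each, with 20433541 counts in MEF HSP90i, 22872539 in MEF Control, 13844639 in HPC-7 HSP90i and 16859394 in HPC-7 Control. The part of this in the Hsf4 values was not tested.

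HSBP1 was higher in treated K562 and MEF cells by similar amounts and was not called in HPC-7. In K562 (ENSG00000230989.2) it had 150.2, 171 and 152 CPM in HSP90i libraries and 123, 113 and 107 CPM in Control libraries. The groups did not overlap, with means of 158 ± 11.5 CPM in HSP90i and 114 ± 8.08 CPM in Control (SD, n = 3 each). The log2 fold change was 0.47 ± 0.12 [0.19, 0.75], a fold of 1.38, at an adjusted p of 0.0458 in the quasi-likelihood test of edgeR, just inside the threshold.

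This call in K562 held in 4 of 13 alternatives, while the value stayed between 0.37 and 0.53 in all of them. The call was lost with upper quartile factors, with library size alone and with no filter on low counts. It was also lost with the replicate number as a block (adjusted p = 0.0528, edgeR's quasi-likelihood test). Leaving out any 1 library other than Control replicate 1 lost it as well. Without Control replicate 1 the HSBP1 value was 0.53 (adjusted p = 0.000760, edgeR's quasi-likelihood test).

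Hsbp1 in MEF (ENSMUSG00000031839, chromosome 8, 119344538 to 119348929, GRCm38.p6) had 111, 112 and 115 CPM in HSP90i libraries and 85.5, 81.1 and 84.5 CPM in Control libraries. The 3 libraries of each group were close to one another and the groups were well apart. The log2 fold change was 0.43 ± 0.05 [0.33, 0.54], or 1.35-fold (adjusted p = 3.76e-05, edgeR's quasi-likelihood test, Benjamini-Hochberg), and it was called in all 14 alternatives.

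In HPC-7, Hsbp1 had 117, 115 and 111 CPM in HSP90i libraries and 116, 108 and 115 CPM in Control libraries. The groups overlapped almost fully. The log2 fold change was 0.01 ± 0.07 with an interval of −0.14 to 0.16 (adjusted p = 0.857, edgeR's quasi-likelihood test), an interval that does not reach the values found in K562 and MEF.

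**Figure D2:**
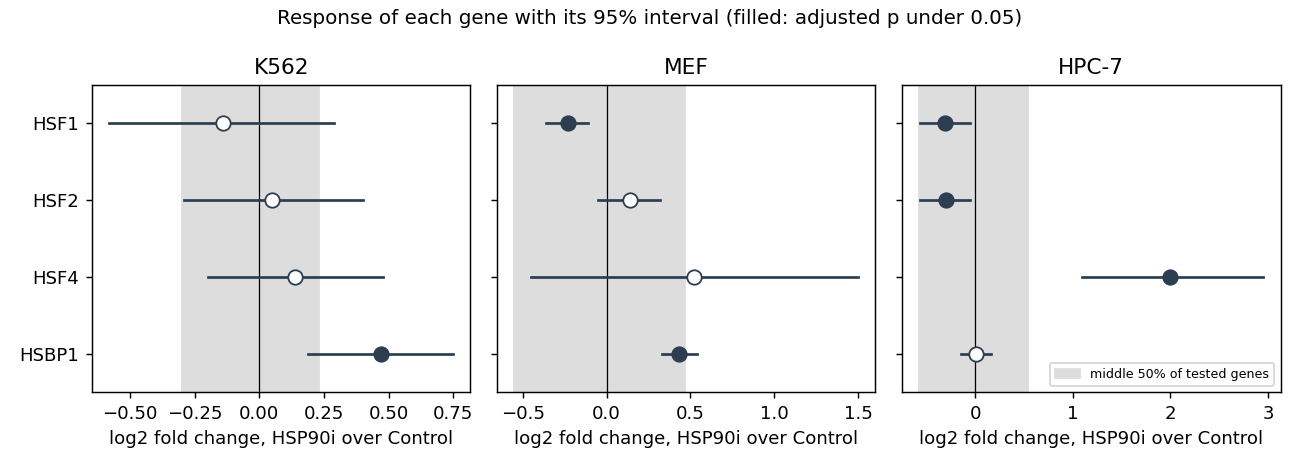
Log2 fold change (HSP90i over Control, horizontal axis, a separate scale for each line) of the 4 genes with 95% intervals, filled where the adjusted p was below 0.05, on a grey band that holds the middle 50% of tested genes. HSBP1 in K562 at 0.47 and Hsf4 at 2.0 in HPC-7 and 0.52 in MEF, the last not called, lie outside the band. The called values of Hsf1 (−0.23 in MEF and −0.31 in HPC-7), Hsbp1 in MEF (0.43) and Hsf2 in HPC-7 (−0.30) lie inside it.

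In K562, 1 of the 4 genes was called, HSBP1, against 11.1% of all tested genes (5.11% higher and 5.97% lower), and it was also the only one of the 4 whose groups did not overlap, against 35.2% of tested genes. In MEF, 2 of 4 were called, Hsf1 lower and Hsbp1 higher, against 73.4% of tested genes (35.1% higher and 38.2% lower), and the same 2 had groups that did not overlap, against 76.2%. In HPC-7, 3 of 4 were called, Hsf1 and Hsf2 lower and Hsf4 higher, against 73.1% (36.5% higher and 36.6% lower), where Hsf4 could be tested only through its treated libraries and its call adds nothing to the count, and the same 3 had groups that did not overlap, against 77.4%. In the mouse lines these shares are near or below the background. All tested genes of K562 had a median log2 fold change of −0.02, those of MEF −0.01 and those of HPC-7 0.

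The balance of binding protein to factor was read as a ratio of raw counts within each library, which does not depend on how libraries are scaled. In K562 the ratio of HSBP1 to HSF1 counts was 1.81, 2.07 and 2.01 in HSP90i libraries and 1.05, 1.48 and 1.46 in Control libraries. In MEF it was 1.39, 1.5 and 1.53 in HSP90i libraries and 0.911, 0.898 and 0.978 in Control libraries. In HPC-7 it was 2.03, 1.99 and 2.60 in HSP90i libraries and 1.81, 1.65 and 1.74 in Control libraries. In each line all 3 treated ratios were above all 3 Control ratios.

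The HSBP1 to HSF1 ratio was 1.49-fold higher in treated K562 cells, 1.59-fold in MEF and 1.26-fold in HPC-7. Each of these comparisons had p = 0.1 in a two-sided exact permutation test, the smallest that 3 against 3 libraries allow, and an adjusted p of 0.15 over the 6 ratios compared. In HPC-7 the shift came with a lower Hsf1 and an Hsbp1 that overlapped between groups, whereas in K562 it came with a higher HSBP1. Without Control replicate 1 the K562 shift was 0.41 on the log2 scale, against 0.58 with all libraries.

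The ratio of HSF2 to HSF1 counts was 0.372, 0.444 and 0.415 in MEF HSP90i libraries and 0.314, 0.335 and 0.296 in MEF Control libraries. The groups did not overlap, and the ratio was 1.30-fold higher in treated MEF (two-sided exact permutation p = 0.1, adjusted p = 0.15). In K562 it averaged 0.683 ± 0.0392 in HSP90i and 0.638 ± 0.222 in Control, where replicate 1 had 0.381 and the other libraries 0.771 and 0.761 (exact permutation p = 1). In HPC-7, where both genes were lower, it averaged 0.365 ± 0.0914 in HSP90i and 0.354 ± 0.0332 in Control (exact permutation p = 0.9).

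**Figure D3:**
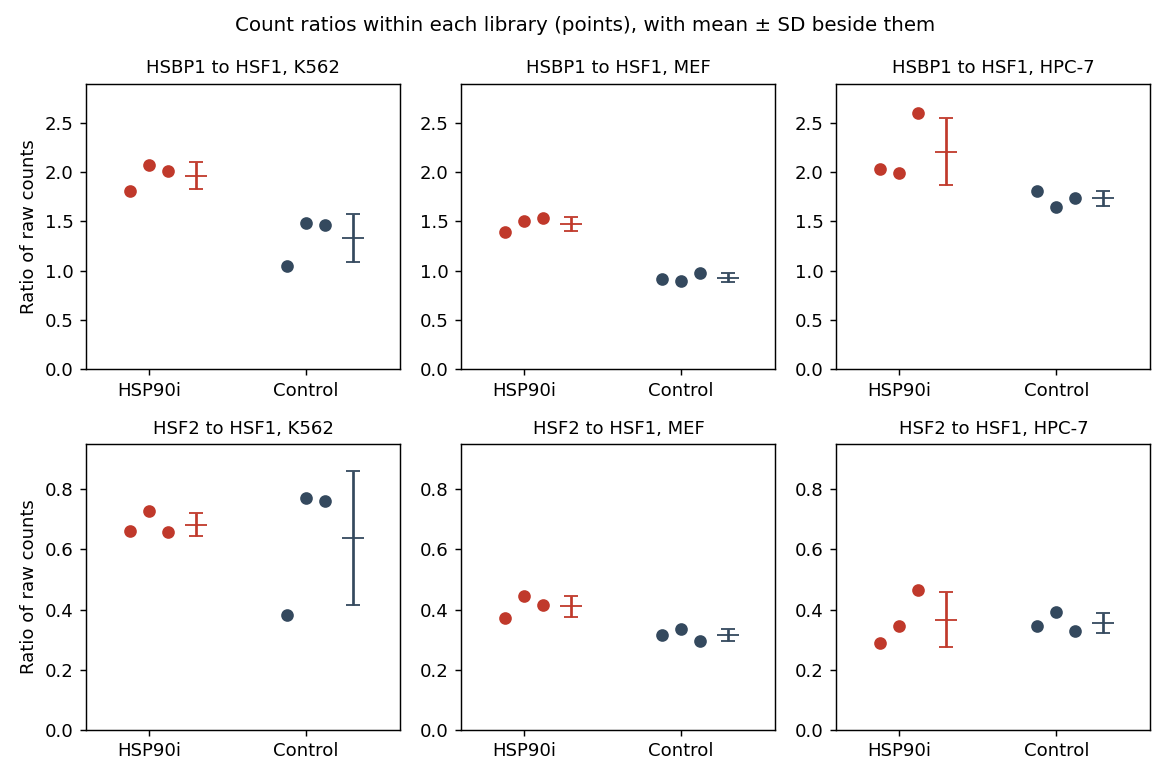
Ratio of HSBP1 to HSF1 counts (top) and of HSF2 to HSF1 counts (bottom) in each library of the 3 lines, HSP90i (red) left of Control (blue), with the mean ± SD of 3 beside the points. The HSBP1 to HSF1 ratio does not overlap between groups in any line, and the HSF2 to HSF1 ratio separates in MEF alone. How often ratios of other genes separate was not counted.

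The mouse lines share gene identifiers, so the difference between their responses could be tested in 1 fit of 12 libraries. Line and dose cannot be told apart in it. On that shared scale Hsf2 had 34.0, 37.9 and 35.3 CPM in MEF HSP90i libraries and 31.3, 30.6 and 27.6 CPM in MEF Control libraries. In HPC-7 it had 15, 18 and 18.2 CPM in HSP90i libraries and 20.1, 23.4 and 19.8 CPM in Control libraries. Treated libraries were thus the higher ones in MEF and the lower ones in HPC-7.

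The MEF response of Hsf2 exceeded the HPC-7 response by 0.56 ± 0.14 on the log2 scale [0.26, 0.86] (adjusted p = 0.00447, edgeR's quasi-likelihood test of the interaction). All genes had a median difference of 0.11 in this comparison, which leaves 0.45 for Hsf2 relative to it. With RLE factors, where that median was −0.01, the Hsf2 difference was 0.43 (adjusted p = 0.0201, edgeR). The call was lost when HPC-7 Control replicate 1, 2 or 3 was left out, with values of 0.38, 0.27 and 0.39. Leaving out any of these libraries also turned the median of all genes, to −0.11, −0.10 and −0.10.

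Hsbp1 responded more in MEF than in HPC-7 by 0.53 ± 0.09 [0.35, 0.72] (adjusted p = 0.00016, edgeR's quasi-likelihood test of the interaction), or 0.42 relative to the median of all genes. It was called in all 19 alternatives, between 0.30 and 0.58. Hsf1 differed by 0.19 ± 0.13 and was not called (adjusted p = 0.274, edgeR). For Hsf4 the difference was −1.36 ± 0.66 [−2.79, 0.04] and also not called (adjusted p = 0.111, edgeR), an interval that spans most of the HPC-7 response. The interaction was thus called for 2 of the 4 genes, both higher, against 43.2% of 13720 tested genes (25.4% higher and 17.8% lower).

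Untreated levels of the factors also differed between the mouse lines. Hsf1 averaged 94.7 ± 4.41 CPM in MEF Control and 59.6 ± 0.991 CPM in HPC-7 Control on the shared scale, a log2 difference of 0.67 ± 0.09 (adjusted p = 9.86e-06 in edgeR's quasi-likelihood test). Hsf2 averaged 29.8 ± 1.99 CPM in MEF Control and 21.1 ± 1.97 CPM in HPC-7 Control, a log2 difference of 0.51 ± 0.10 (adjusted p = 0.000207, edgeR). Both were called in all 18 alternatives.

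For Hsbp1 the averages were 87.9 ± 5.13 CPM in MEF Control and 103 ± 4.05 CPM in HPC-7 Control, a log2 difference of −0.23 ± 0.06 (adjusted p = 0.00262 in edgeR's quasi-likelihood test). That call was lost with RLE factors (−0.08), with DESeq2 (−0.08) and without any 1 HPC-7 Control library. Hsf4 averaged 0.673 ± 0.395 CPM in MEF Control and 0.429 ± 0.181 CPM in HPC-7 Control and was not called (0.78 ± 0.54, adjusted p = 0.183, edgeR). These were 3 called genes of 4, 2 higher and 1 lower in MEF, against 83.2% of tested genes (39.7% higher and 43.6% lower), with a median difference of −0.08 over all genes.

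In the order of the 4 mouse groups, Hsf1 was highest in MEF Control, then MEF HSP90i at 87.3 ± 3.58 CPM, HPC-7 Control and HPC-7 HSP90i at 48.0 ± 7.62 CPM. The ranges of MEF HSP90i (85.1 to 91.4 CPM) and MEF Control (91.3 to 99.6 CPM) overlapped slightly on this scale. Hsf2 ran from MEF HSP90i at 35.7 ± 1.96 CPM through MEF Control and HPC-7 Control to HPC-7 HSP90i at 17.1 ± 1.80 CPM, with no overlap between neighbours. Hsbp1 was highest in MEF HSP90i at 128 ± 1.49 CPM, followed by both HPC-7 groups, which overlapped, and by MEF Control. Hsf4 was highest in HPC-7 HSP90i at 1.75 ± 0.723 CPM, followed by MEF HSP90i at 1.13 ± 0.405 CPM, MEF Control and HPC-7 Control, and each neighbour in that order overlapped the next.

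**Figure D4:**
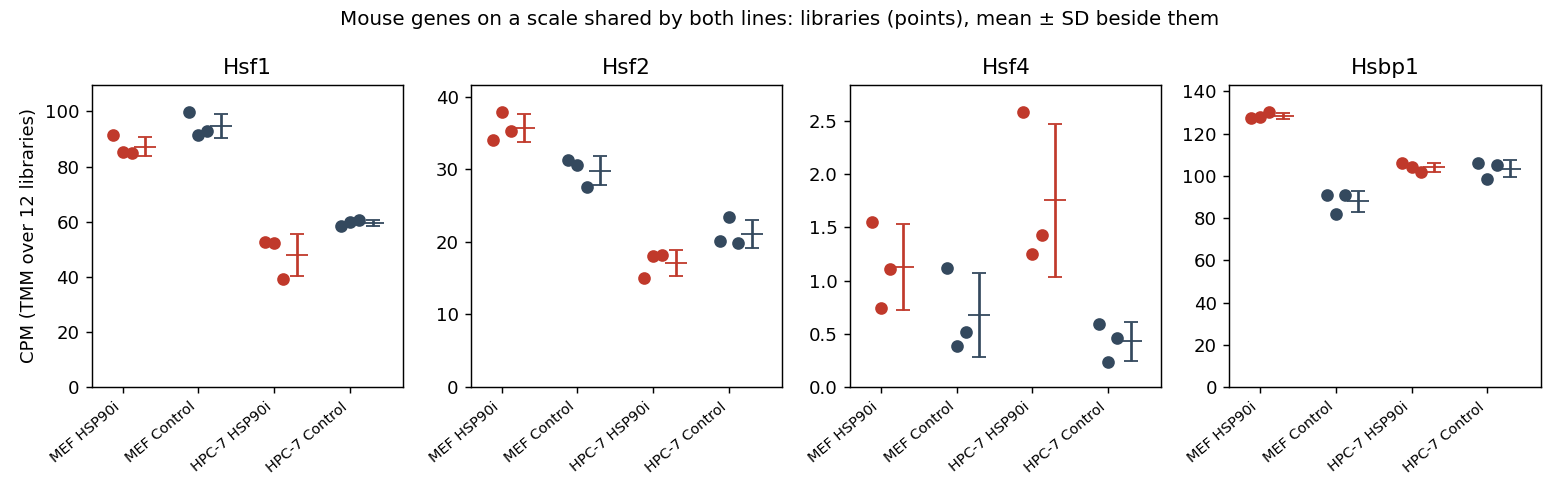
CPM of the 4 mouse genes in MEF and HPC-7 on a scale shared by the 12 libraries (vertical axes from 0), HSP90i red and Control blue, with mean ± SD of 3 beside the points. Hsf1 and Hsf2 are higher in both MEF groups than in both HPC-7 groups, and Hsbp1 stands highest in MEF HSP90i at 128 CPM.

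For each of the 4 genes, the genes whose levels ran most alike over the 18 libraries were found by the correlation of log2 CPM centred within each line, among 6818 genes. These are descriptions, since all points share their libraries and scaling and each line's treatment. Nearest to HSF1 were CDC34 (r = 0.939), which encodes a ubiquitin-conjugating enzyme, RNF126 (0.934), a ubiquitin ligase gene, and MRPL55 (0.930), a gene of the mitochondrial ribosome. HSF1 lay furthest from its line's mean in K562 Control replicate 1 (117 CPM) and HPC-7 HSP90i replicate 3 (42.6 CPM). The part of these libraries in the correlations was not tested. Nearest to HSF2 were ZDHHC21 (0.866), TMEM30A (0.854) and AEBP2 (0.848). HSF4 ran closest to TMEM50A (0.929), ANAPC16 (0.896) and APBA3 (0.887). Mouse Hsf4 had only 3 to 39 counts a library, below the minimum level set for the genes it was compared with. HSBP1 ran closest to ATP6V1H (0.983), a subunit gene of the vacuolar proton pump, to HSPE1 (0.970), the mitochondrial HSP10 gene on the target list, and to TSPYL2 (0.942).

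The genes that heat shock factors are known to switch on were counted beside the factors. Their list was chosen with earlier results of these data known, so the counts are descriptions. Of 27 such target genes, 26 were tested in K562 and 26 were called higher, with a median log2 fold change of 2.43 against −0.02 for all tested genes, of which 5.11% were called higher. CRYAB passed the filter on low counts through the treated libraries alone (3 HSP90i and 0 Control libraries over 0.961 CPM), so it could only be called higher. The members with the smallest p were HSPH1 (4.34), HSPA8 (3.91), HSPA1A (6.67) and HSPA1B (5.74), genes of HSP110 and HSP70 chaperones. HSF1, HSF2 and HSF4 themselves were not called in the same libraries. The near-identical HSPA1A and HSPA1B can exchange reads.

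In MEF, 22 of 26 tested targets were called higher, 3 lower and 1 was not called, with a median of 0.73 against −0.01 for all tested genes. Hsph1 (1.78), Hspa8 (2.52), Hspb1 (2.60) and Hspe1 (1.16) had the smallest p. In HPC-7, 10 of 22 were called higher, 7 lower and 5 were not called, with a median of 0.12 against 0. The smallest p there belonged to Hspa8 (1.6), Hspa1b (4.66), Hspa4l (1.28) and the J-domain gene Dnajb4 (1.15), all higher. Hspa1a passed the filter in HPC-7 through the 3 treated libraries alone. Higher calls made up 35.1% of tested genes in MEF and 36.5% in HPC-7, and lower calls 38.2% and 36.6% in the same order.

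Proteins known to modify, bind or degrade HSF1 or HSF2 formed a second list of 28 genes, chosen under the same limit and all tested in every line. In K562, 2 were called higher and 0 lower, with a median log2 fold change of 0.13 against −0.02 for all tested genes, of which 5.11% were higher and 5.97% lower, so the count is near the background. They were PLK1 (0.71), a mitotic kinase that phosphorylates HSF1, and CDC20 (0.66), an activator of the anaphase-promoting complex, which is known to mark HSF2 for degradation. FBXW7 (0.53, adjusted p = 0.0811), the substrate receptor of an HSF1 ubiquitin ligase, and CSNK2A1 (0.36, adjusted p = 0.136), a casein kinase subunit, came next without passing edgeR's quasi-likelihood test. Without Control replicate 1 the counts were 5 higher and 1 lower, a setting chosen after seeing the data.

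In MEF, 7 of the 28 regulators were called higher and 11 lower, with a median of −0.10, where 35.1% of all tested genes were higher and 38.2% lower. In HPC-7 the counts were 6 higher and 13 lower with a median of −0.12, where 36.5% of all tested genes were higher and 36.6% lower. In both lines the share of regulators called in either direction was below that of all tested genes (73.4% in MEF, 73.1% in HPC-7). Plk1 fell, with log2 fold changes of −2.38 in MEF and −1.94 in HPC-7, and so did Cdc20, with −2.35 in MEF and −1.40 in HPC-7. Rpa1, a replication protein known to help HSF1 reach chromatin, fell too, with −1.55 in MEF and −1.89 in HPC-7. Fzr1, the other activator of the anaphase-promoting complex, fell by 0.94 in MEF. Dyrk2, a kinase that phosphorylates HSF1, rose by 1.31 in HPC-7, while in MEF its log2 fold change was −0.86, called lower. Plk1 and Cdc20 also act in every mitosis, and their levels in the mouse lines went the opposite way to those in K562.

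**Figure D5:**
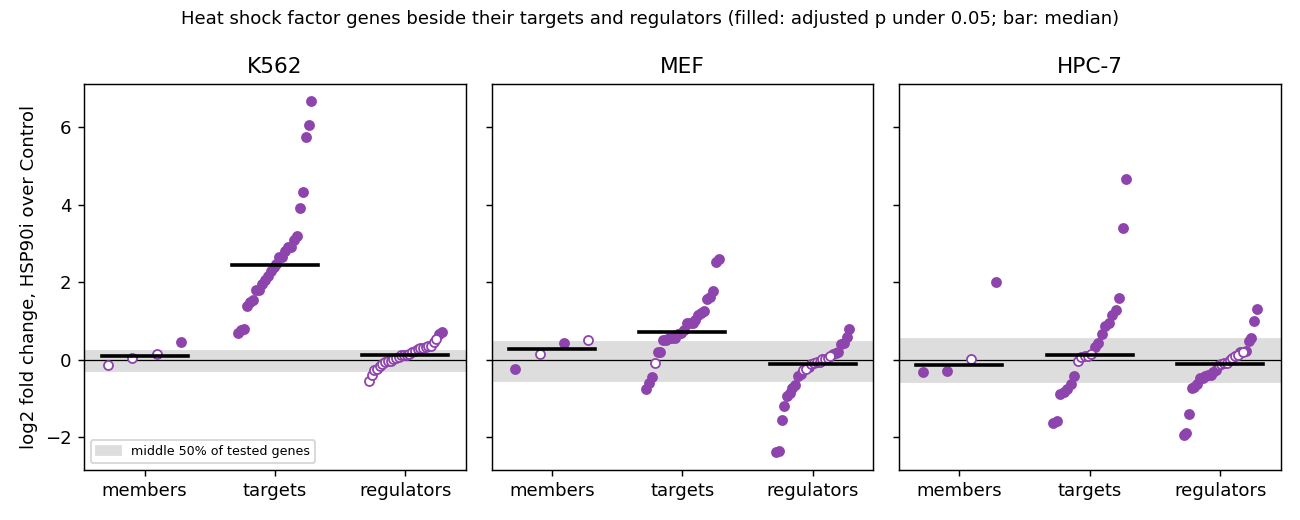
Log2 fold change (HSP90i over Control, vertical axis) of the 4 heat shock factor genes (members), 22 to 26 targets and 28 regulators in each line, filled where the adjusted p was below 0.05, with a black bar at the median and a grey band for the middle 50% of tested genes. Targets lie above the band in K562, at a median of 2.43, and on both sides of 0 in HPC-7, at a median of 0.12, while the 4 genes lie between −0.31 and 0.52 except Hsf4 in HPC-7 at 2.0.

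Other family genes were barely counted. HSBP1L1, a relative of HSBP1, had 2, 0 and 1 counts in K562 HSP90i libraries and 0, 1 and 0 in Control libraries. Hsbp1l1 had 0, 1 and 1 counts in HPC-7 HSP90i libraries and 6, 3 and 1 in Control libraries, and 1 count in all in either MEF group. Hsf5, known from the testis in mouse, had 1 count in each MEF HSP90i library and 5, 0 and 2 in MEF Control libraries. None of these was tested, and Hsf3, Hsf5 in HPC-7, HSF5 in K562 and the listed HSFX and HSFY genes had 0 counts.

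Mouse genes next to the factors were listed after their values were seen, since the sources used here do not give the use of strand in counting. Bop1, a ribosome biogenesis gene 112 bases from Hsf1, changed by −1.17 in MEF and −1.66 in HPC-7, more than Hsf1 itself. Dgat1, 856 bases on the other side of Hsf1, went the opposite way, 0.36 in MEF and 0.80 in HPC-7. Serinc1, 2630 bases from Hsf2, rose by 0.47 in MEF and 0.84 in HPC-7, where Hsf2 was lower. The long noncoding RNA 4930467K11Rik overlaps Hsf2 and had at most 1 count per library.

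Fbxl8 lies 87 bases from Hsf4 and Nol3 lies 299 bases from it. Fbxl8 had 0.23 in MEF, not called, and rose by 0.65 in HPC-7. Nol3 rose by 1.32 in MEF and had 7 to 15 counts in HPC-7 HSP90i libraries and 3 to 12 in Control libraries, too few to be tested. Whether reads of these neighbours entered the low Hsf4 counts was not tested.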

How the data were processed

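RNA-seq counts from 18 libraries were analysed, 3 HSP90i and 3 Control libraries in each of K562, MEF and HPC-7. Samples were grouped by their titles, and count columns named for DMSO were taken as Control. The authors deposited raw counts for each gene, which served as the values here. The submitters' processing notes name TopHat2 2.0.13, Bowtie2, Trim Galore, Picard, featureCounts, MACS2 and DESeq2 as tools, and hg38, GRCh37, mm10 and GRCm38 as builds, without saying which served which step. Members and lists were chosen with earlier results of these data known.

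Genes were filtered with edgeR's filterByExpr, scaled with TMM and tested with the quasi-likelihood test of edgeR (version 4.0.16, under R 4.3.3) within each line, with Benjamini-Hochberg adjustment over all tested genes (K562 13456, MEF 12340, HPC-7 11703). The fit over the 12 mouse libraries covered 13720 genes. Count ratios were compared with exact permutation tests over libraries. Named genes were the 4 members, the 4 genes with the smallest p of each list in each line, family genes with a count, and the 3 genes most like each member. A list symbol with several identifiers was taken by the one with the most counts. The edgeR comparisons were tested on simulated counts with known changes, and the other procedures were not. The simulation changed few genes, in both directions, and held no outlying library. It therefore does not cover the broad changes of the mouse lines or the K562 Control library that stood apart.

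Alternatives were RLE, library size and upper quartile scaling, no filter, at least 1 CPM in 3 libraries, a replicate block, DESeq2 1.42.0, each library left out, and the joint mouse fit. Mouse positions and promoter windows came from RefSeq, GRCm38.p6. Human positions, levels per gene length and the distance to HSP90 peaks were not analysed here. Depth limits precision through the totals given. Counts were made without molecular identifiers, and the errors of the edgeR fits cover the spread between libraries, not counting error only. Plots used Python 3.11.15 with matplotlib 3.10.9.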

Additional observations from a re-analysis of the deposited data

Results flagged for a closer look

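The response of Hsf2 differed between the mouse lines by 0.56 on the log2 scale, and that of Hsbp1 by 0.53, each past the test of the difference itself over 12 libraries (edgeR's quasi-likelihood test, adjusted p = 0.00447 for Hsf2 and 0.00016 for Hsbp1). The same test called 43.2% of 13720 genes, 25.4% of them higher in MEF as a share of all tested. Hsf2 stood at percentile 73.5 of these differences and Hsbp1 at 72.3, so their size was not unusual. All 3 treated Hsf2 values were above all 3 Control values in MEF on the scale shared by both lines, and all 3 were below in HPC-7. With MEF scaled alone the Hsf2 groups overlapped and the MEF response of 0.14 was not called (adjusted p = 0.165, edgeR). The Hsf2 difference lost its call without HPC-7 Control replicate 1, 2 or 3, at 0.38, 0.27 and 0.39. Hsbp1 was higher in 3 of 3 treated MEF libraries and overlapped in HPC-7. Line and dose changed together, so they cannot be told apart.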

How the results depend on the processing

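Hsbp1 in MEF, the Hsbp1 difference between mouse responses and the untreated Hsf1 and Hsf2 differences kept their direction and their call under every alternative run. Hsf4 in HPC-7 kept both too, but it had passed the filter on low counts only through its treated libraries. All 42 alternative values of the count ratios stayed within 1 SD of the spread between replicates. Leaving out 1 of 3 libraries cannot move a ratio further than that, so this is no sign of stability. The HSF2 to HSF1 ratio still changed sign, to −0.17 on the log2 scale in K562 without Control replicate 1 (0.17 with all libraries), and in HPC-7 to −0.17 without HSP90i replicate 3 and −0.04 without Control replicate 3 (0.02 with all libraries). Of the alternative values for the 4 genes, 266 kept direction and side of the threshold, 29 lost a call, 4 gained one and 12 changed sign, the last all in values that were not called. Hsf4 in the mouse lines rests on 3 to 39 counts a library, and leaving out 1 MEF library moved its response between 0.16 and 1.31, with a call without Control replicate 1.

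In K562 the number of called genes was 1491 and ran from 348 to 3917 with 1 library left out, HSF1 from −0.26 to 0.11, HSF2 from −0.05 to 0.14 and HSBP1 from 0.41 to 0.53. HSF2 was −0.06 with library size alone and −0.02 with upper quartile factors. HSBP1 lost its call at 0.37 with library size alone, 0.39 with upper quartile factors and 0.49 with no filter. Library size alone moved the median of all K562 genes to −0.13 and the share of higher calls to 26.7%, against 46.1% in the main scaling, and upper quartile factors moved that share to 35.3%. Regulators called in K562 were 5 higher and 1 lower without Control replicate 1.

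In MEF, upper quartile factors gave −0.13 for Hsf1, without a call, and 0.24 for Hsf2, with one, and the joint mouse fit gave −0.12 and 0.25 in the same order. In HPC-7, Hsf1 was −0.25 and Hsf2 −0.25 with upper quartile factors and Hsf2 −0.30 with DESeq2, none called. With 1 library left out, Hsf1 ran from −0.39 to −0.18, Hsf2 from −0.36 to −0.22 and Hsbp1 from −0.02 to 0.03, and Hsbp1 was −0.02 with no filter. The difference between mouse responses ran from −0.03 to 0.28 for Hsf1, from 0.27 to 0.61 for Hsf2 and from −1.93 to −0.57 for Hsf4. Higher calls made up 58.8% of that comparison in the main scaling, 47.3% with RLE factors and 47.0% with DESeq2. Between untreated lines, Hsbp1 was −0.08 with RLE factors, −0.08 with DESeq2 and −0.26 to −0.05 with 1 library left out, and Hsf4 ran from −0.01 to 1.29. The cause of these changes was not tested.

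The labels do not say what a replicate number marks, and samples with the same number were not treated as pairs. The correlations of their deviations were 0.30, 0.04 and 0.47 in K562, 0.31, −0.27 and −0.29 in MEF, and −0.03, 0.02 and −0.12 in HPC-7. The middle value was not above 0.1 in MEF or HPC-7. In K562 it was above 0.1, so whether the K562 samples were paired cannot be told. With the replicate number as a block, K562 had 1810 called genes, MEF 8796 and HPC-7 8129. HSBP1 in K562 was 0.47 (adjusted p = 0.0528, edgeR) and the Hsf4 difference between mouse responses was −1.34 (adjusted p = 0.0317, edgeR) under that block. Levels per gene length, the nearest HSP90 peak to human genes and Hsf4 in MEF under the minimum of 1 CPM in 3 libraries gave no value.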
